A study of Homo sapiens with 6 samples.

Results

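The genes described here are 35 genes of ER-associated degradation (ERAD), found by symbol among the 25445 rows of a count table from MHCC-97H cells, an established human hepatocellular carcinoma line. They were chosen by function, with earlier results of these data known: lectins, mannosidases, ubiquitin ligases, channel proteins and the VCP extraction complex. RNA-seq was performed on 3 libraries of 6j treated cells, which had received compound 6j, made from the alkaloid sophoridine, at 10 μM for 16 h, and on 3 libraries of non-treated cells, which had received solvent for the same time. The solvent is not named in the labels, which enter the treatment of these cells as none. The labels give replicate numbers from 1 to 3 but not whether a number marks a separate culture, so p-values measure the spread between these samples, which may be technical. A single cell line, dose and time were measured, and in such bulk RNA fewer cells of a type and less RNA per cell cannot be told apart.

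ERAD clears proteins that fail to fold in the endoplasmic reticulum. Lectins and mannose-trimming enzymes mark and deliver the misfolded glycoprotein, a membrane channel built around the SEL1L-SYVN1 ubiquitin ligase passes it to the cytosol, and the ATPase VCP with its cofactors pulls out the ubiquitinated chain for the proteasome. Several ERAD genes are known targets of the unfolded protein response, the transcriptional programme that hepatocytes and other secretory cells use when folding capacity is exceeded.

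Total counts per library ranged from 31533403 to 37919879 in non-treated cells and from 35002336 to 38018349 in 6j treated cells. Levels below are in CPM, counts scaled to library size after TMM normalization, and tests are edgeR's quasi-likelihood test with Benjamini-Hochberg adjustment over the 15957 rows that passed a filter on low counts. A differentially expressed gene (DEG) had an adjusted p under 0.05 together with a change of more than 1.5-fold. Among hepatocyte lineage markers, HNF4A reached 1 CPM in at least 1 library, ALB and AFP did not, and TTR and FOXA2 were at 0, so these defining markers of hepatocytes were absent or near 0 in these libraries. The epithelial markers were mixed. The keratins KRT8 and KRT18 were abundant, while CDH1 did not reach 1 CPM in any library and EPCAM was at 0. The summed level of the 4 epithelial markers, which came from the keratins, was 899 to 1109 CPM in non-treated and 713 to 808 CPM in 6j treated cells. The 5 leukocyte markers summed to at most 1.0 CPM in any library, and those of endothelium to at most 6.25 CPM. The 4 fibroblast and stellate cell markers summed to 266 to 327 CPM in non-treated and 244 to 318 CPM in 6j treated cells. Most of this was COL1A1 (213 to 274 and 199 to 275 CPM), and DCN did not reach 1 CPM in any library. The part of these differences in the results below was not tested.

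In 6j treated cells, 2 of the 34 members tested were upregulated DEGs by edgeR, HERPUD1 and SEL1L, and 0 were downregulated DEGs. The counts were also 2 and 0 by DESeq2, and by edgeR with an unadjusted p under 0.05 and the same fold. Of all rows tested, 2.48% were upregulated DEGs and 1.12% downregulated DEGs. At an adjusted p under 0.05 whatever the fold, 6 members were higher (HERPUD1, SEL1L, DERL1, RNF185, EDEM1 and SYVN1) against 4.79% of all rows, and 1 was lower (VCP) against 4.37%. The higher members are a larger share of the 34 than among all rows, and 1 lower member is too few to compare. The members were chosen with earlier results of these data known, so the shares are a description and were not tested. The other 27 members tested did not pass, and DERL3 was not tested. Of the 4 genes of the SEL1L-SYVN1 ligase core, 3 rose. Of the 9 genes for the ATPase VCP and its cofactors 1 fell and 0 rose in edgeR without a block, while SELENOS was higher by DESeq2 (adjusted p = 0.0458) and SELENOS and UBXN4 had unadjusted p values of 0.00956 and 0.0351 in edgeR. A difference between these roles was not tested. The median log2 fold change over the 34 members was 0.07, with quartiles of -0.04 and 0.27, beside 0.0046 over all rows tested. The members ranged from -0.45 in VCP to 1.28 in HERPUD1 on the log2 scale.

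When the fit carried a block for the replicate number, the counts at an adjusted p under 0.05 whatever the fold became 10 higher and 2 lower. Among all rows in the same blocked fit, 13.1% were higher and 13.9% lower. The higher members were again a larger share of the 34, and the 2 lower ones are too few to compare. These shares were not tested either. ERLEC1, RNF5, UBE2J1 and SELENOS joined the higher members and BCAP31 joined VCP. The 3 libraries of each group did not overlap in 20 members, 17 higher in 6j treated cells and 3 lower, where 16.0% and 15.8% of all rows did so in each direction. The fold changes by role plot shows all 34 members with their errors.

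**Figure D1:**
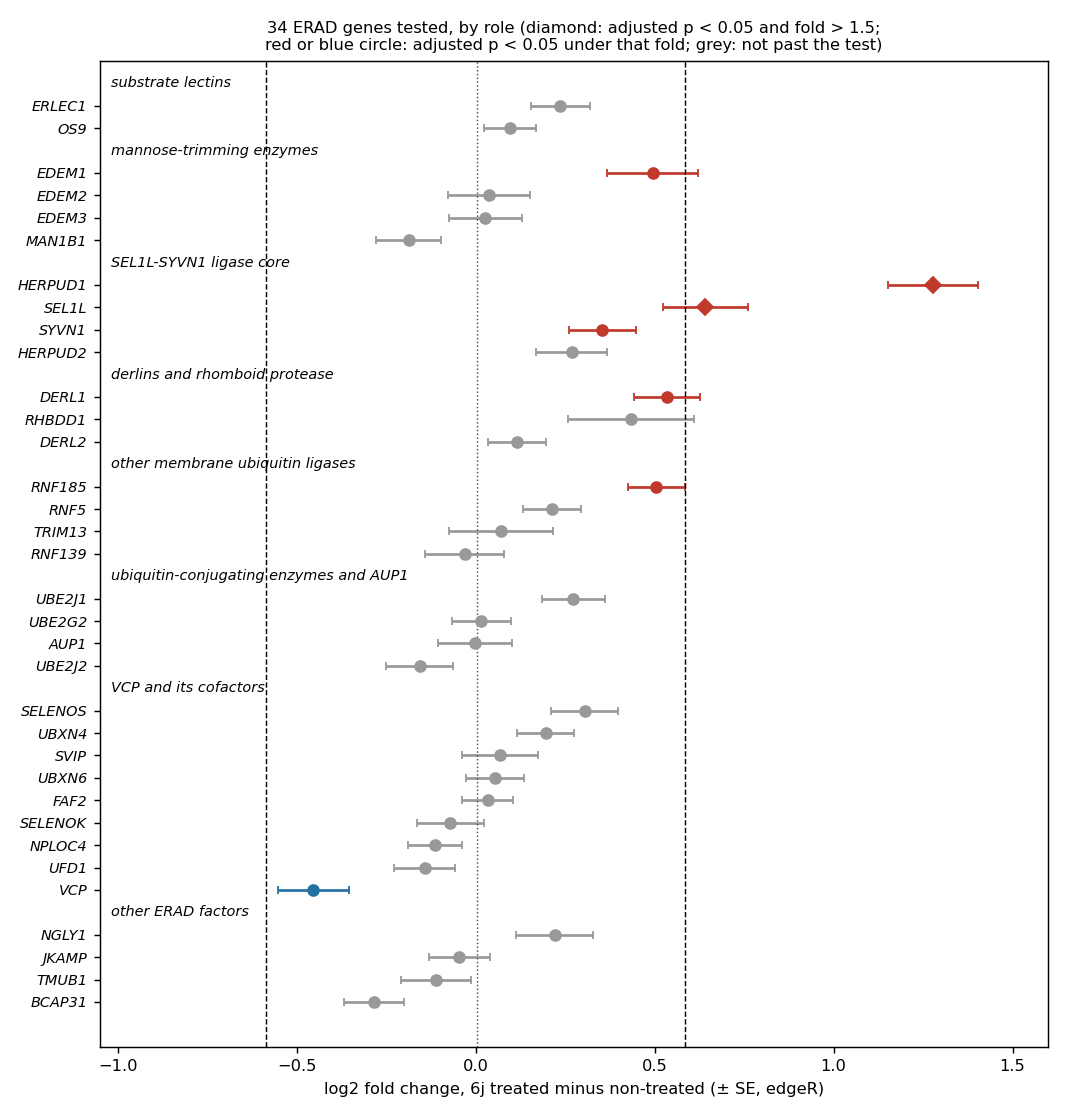
Log2 fold change (6j treated minus non-treated, ± SE from edgeR) of the 34 ERAD genes tested, grouped by role, with dashed lines at the 1.5-fold threshold and a dotted line at the median of all rows. HERPUD1 at 1.28 and SEL1L at 0.64 lie beyond the dashed line, 4 further members were higher at a smaller fold, and VCP at -0.45 was the lower member.

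The 2 members with the greatest rise, HERPUD1 and SEL1L, belong to the ligase core. SYVN1 of the same core (log2 0.35) rose less than DERL1, RNF185 and EDEM1 outside it (log2 0.53, 0.50 and 0.49). HERPUD1 (ENSG00000051108, chr16:56932048-56944863, plus strand, GRCh38) encodes Herp, a membrane protein with a ubiquitin-like domain that organizes the SYVN1 complex. In the order of replicates 1, 2 and 3, its level was 76.2, 81.9 and 89.3 CPM without 6j and 162.5, 219 and 218 CPM with it. The groups were far apart, with 6j treated replicate 1 the lowest of its group and still above every non-treated library. HERPUD1 rose 2.42-fold (log2 fold change 1.28, SE 0.13, adjusted p = 0.00173, edgeR), and ranked at position 27 by p among all rows. It was called in each of the 6 fits that left out 1 library, with log2 fold changes of 1.21 to 1.41.

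SEL1L (ENSG00000071537, chr14:81471549-81533861, minus strand), the scaffold that holds the ligase to its substrate receptors, measured 139, 121 and 155 CPM in non-treated cells and 189.9, 214 and 244 CPM in 6j treated cells. The highest non-treated and the lowest 6j treated library did not overlap, and replicate 3 was the highest library in both groups. SEL1L rose 1.56-fold (log2 fold change 0.64, SE 0.12, adjusted p = 0.0147), just above the fold threshold. Its adjusted p was 0.0793 without non-treated replicate 1 and 0.0744 without 6j treated replicate 2, and its fold was under 1.5 without non-treated replicate 2 (log2 0.55) or 6j treated replicate 3 (log2 0.54), so the call held in 2 of 6 such fits.

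SYVN1 (ENSG00000162298, chr11:65121780-65134533, minus strand) encodes HRD1, the RING ubiquitin ligase that SEL1L binds. Its libraries were at 84.2, 84.4 and 75.6 CPM in non-treated and 114, 103 and 94.3 CPM in 6j treated cells. All 3 of the latter were higher, and in both groups replicate 3 was the lowest. SYVN1 rose 1.28-fold (log2 0.35, SE 0.09, adjusted p = 0.0476). With 1 library left out its log2 value was 0.28 to 0.42, and its adjusted p stayed under 0.05 without 6j treated replicate 3 only, up to 0.149 otherwise. SYVN1 shares 7.2% of its exon length with FAU on the same strand, and reads there cannot be assigned to 1 of these genes.

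HERPUD2, the paralog of HERPUD1, was at 20.8, 18.6 and 19.1 CPM in non-treated and 23.5, 23.2 and 23.7 CPM in 6j treated cells. Its groups did not overlap either, but the difference was 1.2-fold and did not pass (log2 0.27, SE 0.10, adjusted p = 0.126). Within each replicate number the log2 ratio of HERPUD1 to HERPUD2 was higher in the 6j treated library, by 0.92, 1.10 and 0.98.

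**Figure D2:**
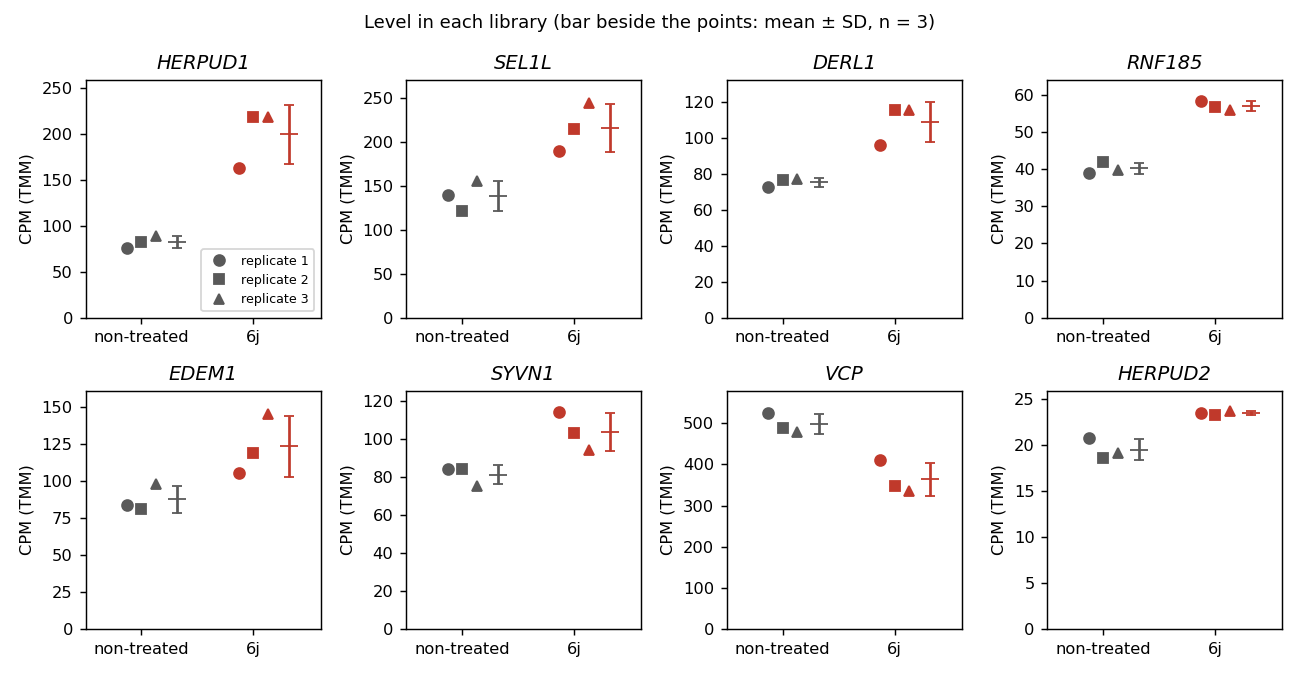
CPM of 8 ERAD genes in each of the 6 libraries, with the mean ± SD of each group (n = 3) beside the points and each vertical axis starting at 0. In HERPUD1 the 6j treated libraries lie at 162.5 to 219 CPM against 76.2 to 89.3 CPM, in VCP they lie below the non-treated ones, and in all 8 genes the groups do not overlap.

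The bases before the gene start are shown for the ligase core genes that rose and for EDEM1, so that the elements bound by transcription factors of the unfolded protein response can be looked for beside their values. Sequences are from RefSeq (GRCh38.p14), 5′ to 3′ on the strand of the gene, and capitals mark the motif matches described after them. The stretches are chr16:56931892-56932047 (plus strand) for HERPUD1, chr14:81533862-81534103 (minus strand) for SEL1L, chr11:65134534-65134769 (minus strand) for SYVN1 and chr3:5187457-5187645 (plus strand) for EDEM1. Each begins 250 bases before the RefSeq transcript start and ends at the gene start of GENCODE 29, which lies before that of RefSeq by 94 bases in HERPUD1, 8 in SEL1L, 14 in SYVN1 and 61 in EDEM1.
HERPUD1: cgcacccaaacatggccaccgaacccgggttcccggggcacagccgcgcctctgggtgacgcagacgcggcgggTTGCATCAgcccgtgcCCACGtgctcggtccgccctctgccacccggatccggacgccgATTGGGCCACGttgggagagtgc
SEL1L: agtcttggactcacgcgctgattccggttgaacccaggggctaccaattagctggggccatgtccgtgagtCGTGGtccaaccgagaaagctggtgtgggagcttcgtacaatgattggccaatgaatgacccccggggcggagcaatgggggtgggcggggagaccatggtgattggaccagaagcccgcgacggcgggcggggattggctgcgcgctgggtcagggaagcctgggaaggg
SYVN1: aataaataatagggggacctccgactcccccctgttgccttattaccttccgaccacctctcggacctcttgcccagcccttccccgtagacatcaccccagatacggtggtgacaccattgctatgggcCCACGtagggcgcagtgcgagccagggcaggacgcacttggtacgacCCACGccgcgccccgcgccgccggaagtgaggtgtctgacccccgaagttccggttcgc
EDEM1: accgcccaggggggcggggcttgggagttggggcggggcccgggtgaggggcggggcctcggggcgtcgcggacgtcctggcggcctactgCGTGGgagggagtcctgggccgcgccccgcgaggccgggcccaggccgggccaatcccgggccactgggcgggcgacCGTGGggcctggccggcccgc

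RefSeq windows from 250 bases before to 50 bases after the transcript start were searched on both strands in 27305 promoters, 29 of them of members. DERL1, DERL3, RNF139, RNF185, TRIM13 and UFD1 had no window in the table used. There was 1 window per gene, and every letter other than N had to match. The ER stress response element (ERSE), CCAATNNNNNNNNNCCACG, was in 0.08% of all promoters (22 of 27305) and in 0 of the 29. For a string this rare, 0 in 29 windows says little about the members. ERSE-II, ATTGGNCCACG, was in 0.05% of all promoters and in 1 member, HERPUD1, from -117 to -107. Positions count from the RefSeq transcript start, so that the last base printed for HERPUD1 is -95. The amino acid response element of the C/EBP-ATF kind (CARE), searched as TGATGNAA, was in 3.67% of all promoters and again in HERPUD1 alone among members, from -176 to -169 on the reverse strand. The core of the unfolded protein response element (UPRE), TGACGTGG, was in 0.79% of all promoters and in the windows of UBE2J1, from -231 to -224 on the reverse strand, and VCP, from -189 to -182, which by GENCODE 29 lies within the VCP gene.

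The CCACG part of ERSE alone, which also lies inside ERSE-II and, on the other strand, inside the UPRE core, was in 37.9% of all promoters and in 22 of the 29 members (75.9%). These shares were not tested, and the promoters of all genes were not matched to the members for expression or base composition. In SEL1L, SYVN1 and EDEM1, CCACG was the motif of this set that matched exactly, at 1, 2 and 2 positions. Near matches were not searched for. The printed sequences of SYVN1 (CCATT for CCAAT) and SEL1L (CCATG for CCACG) hold ERSE with 1 letter changed. How many of all promoters do so was not counted. A match is a string of letters and not a binding site. Members that did not pass the test held CCACG too, for example SELENOS at 4 positions.

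**Figure D3:**
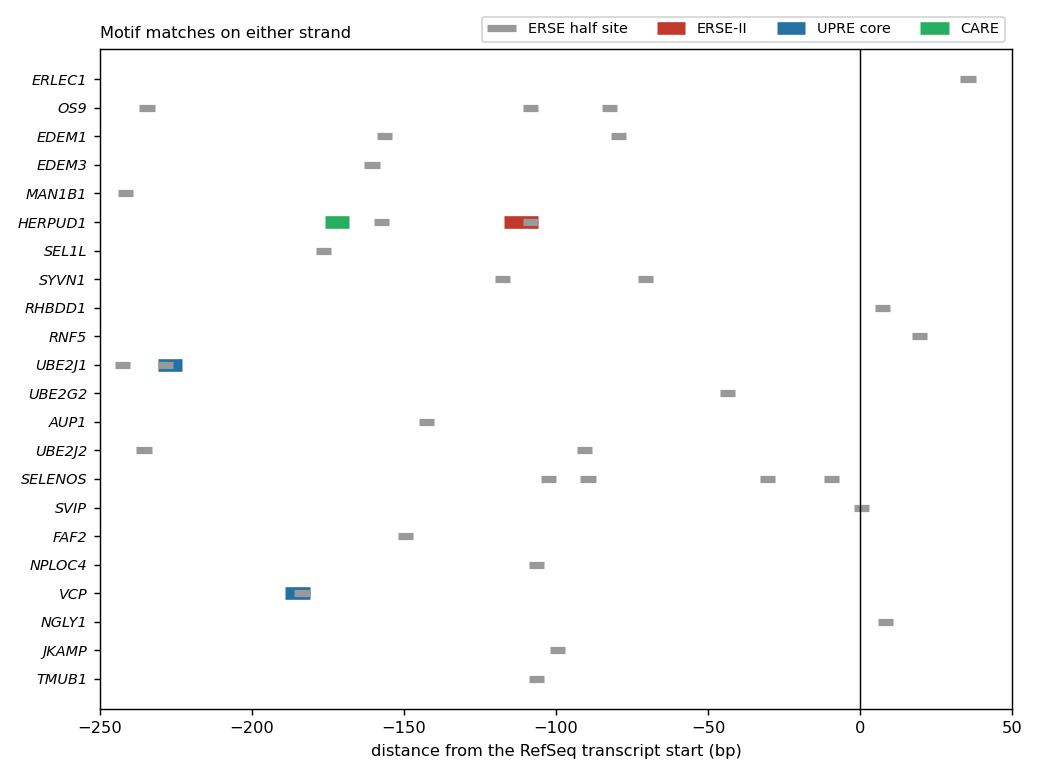
Positions of motif matches, in bases from the RefSeq transcript start, in the 22 member promoters that hold at least 1 match on either strand (grey, the CCACG part of ERSE). The ERSE-II match at -117 to -107 and the CARE match at -176 to -169 both lie in HERPUD1, and UPRE core matches lie in UBE2J1 and VCP.

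Among the enzymes that trim mannose from misfolded glycoproteins, 1 of 4 rose. EDEM1 (ENSG00000134109, chr3:5187646-5219957, plus strand), which accelerates the disposal of misfolded glycoproteins, was at 83.7, 81.0 and 97.6 CPM in non-treated and 105, 119 and 145 CPM in 6j treated cells. Replicate 3 was the highest of both groups, and the groups did not overlap. EDEM1 rose 1.41-fold (log2 0.49, SE 0.13, adjusted p = 0.0438). Its adjusted p was 0.0562 to 0.167 in 5 of the 6 fits without 1 library, and 0.0244 without 6j treated replicate 1.

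The other EDEM genes had values near 0 on the log2 scale. EDEM2, which makes the first cut in the mannose chain, differed by 0.04 (SE 0.12, adjusted p = 0.88) and EDEM3 by 0.03 (SE 0.10, adjusted p = 0.903), and the groups overlapped in both. MAN1B1, the ER mannosidase, was at 69.9 to 78.7 CPM in non-treated and 60.1 to 70.3 CPM in 6j treated cells (log2 -0.19, adjusted p = 0.231).

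Neither of the lectins that bind the trimmed glycan passed in edgeR or DESeq2, and 1 had an unadjusted p under 0.05. OS9 was at 189.8 to 199.8 CPM in non-treated and 205 to 218 CPM in 6j treated cells (log2 0.10, adjusted p = 0.455). ERLEC1 was at 68.0 to 73.5 CPM and 78.5 to 87.8 CPM (log2 0.24, adjusted p = 0.103) and passed in the blocked fit (adjusted p = 0.0112). In both lectins all 6j treated libraries were above all non-treated ones.

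The derlins are membrane proteins that form part of the exit channel. DERL1 (ENSG00000136986) was at 72.5, 76.4 and 76.8 CPM in non-treated and 95.8, 115 and 115 CPM in 6j treated cells. The 6j treated replicate 1 was nearest to the non-treated libraries, and the groups did not overlap. DERL1 rose 1.45-fold (log2 0.53, SE 0.09, adjusted p = 0.0119), just under the fold threshold, and lost its adjusted p without non-treated replicate 1 (0.0737) or 6j treated replicate 2 (0.0682). It passed the fold threshold as well without 6j treated replicate 1 (log2 0.62).

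DERL2 was at 50.1 to 54.1 CPM in non-treated and 55.5 to 59.5 CPM in 6j treated cells (log2 0.12, SE 0.08, adjusted p = 0.409). DERL3 had a count of 0 in all 6 libraries, which allows a level of up to 0.0789 to 0.0951 CPM per library, counting error only. Of its exon length, 77.0% lies opposite exons of SMARCB1 on the other strand, and the strand setting of the counting is not given. RHBDD1, a rhomboid protease that cuts membrane substrates for extraction, was the lowest member tested, at 4.60 to 5.60 CPM in non-treated and 6.22 to 7.37 CPM in 6j treated cells (log2 0.43, SE 0.18, adjusted p = 0.156). The groups of RHBDD1 did not overlap, and its SE was the widest of the members.

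Among ubiquitin ligases outside the SYVN1 complex, 1 of 4 rose. RNF185 (ENSG00000138942, chr22:31160183-31207019, plus strand), a small RING ligase of the ER membrane, was at 39.0, 42.0 and 39.7 CPM in non-treated and 58.5, 56.8 and 56.0 CPM in 6j treated cells. Both groups were tight and well separated. RNF185 rose 1.42-fold (log2 0.50, SE 0.08, adjusted p = 0.0101), which after HERPUD1 was the smallest adjusted p among the members. Without non-treated replicate 1 or 6j treated replicate 2 it did not pass, and its adjusted p reached 0.0616.

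RNF5, the close paralog of RNF185, was at 63.7 to 72.1 CPM in non-treated and 77.1 to 82.7 CPM in 6j treated cells (log2 0.21, SE 0.08, adjusted p = 0.132, and 0.0269 in the blocked fit). RNF139, known as TRC8 and linked to sterol-regulated degradation, and TRIM13, a ligase anchored in the ER membrane, had log2 values of -0.03 and 0.07 with overlapping groups. TRIM13 shares 13.4% of its exon length with KCNRG on the same strand.

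Neither AUP1 nor a ubiquitin-conjugating enzyme passed in edgeR without a block or in DESeq2, and 1 of these 4 genes had an unadjusted p under 0.05. UBE2J1, the conjugating enzyme that works with SYVN1, was at 77.8 to 94.3 CPM in non-treated and 101 to 107 CPM in 6j treated cells (log2 0.27, adjusted p = 0.0882, and 0.013 in the blocked fit). Its relative UBE2J2 had a log2 value of -0.16 (adjusted p = 0.332). UBE2G2 and AUP1, the lipid droplet and ER protein that recruits UBE2G2, had log2 values of 0.02 and -0.0027, with adjusted p of 0.934 and 0.992.

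VCP (ENSG00000165280, chr9:35056064-35073249, minus strand), the ATPase that extracts ubiquitinated substrates, was the member that fell. It was at 525, 489.7 and 479 CPM in non-treated and 410.1, 347 and 335 CPM in 6j treated cells. The 6j treated libraries were all below the non-treated ones, and replicate 1 was the highest in both groups. VCP was 1.37-fold lower (log2 -0.45, SE 0.10, adjusted p = 0.0247, and 0.000204 in the blocked fit). In 5 of the 6 fits without 1 library its adjusted p was above 0.05, up to 0.121, and it was 0.014 without 6j treated replicate 1.

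The adaptors that bind VCP to ubiquitin chains did not pass. UFD1 had a log2 value of -0.14 (adjusted p = 0.337) with overlapping groups. NPLOC4 was at 199 to 208 CPM in non-treated and 179 to 197 CPM in 6j treated cells (log2 -0.11, adjusted p = 0.384), without overlap. SELENOS, a selenoprotein that draws VCP to the derlins, was at 53.6 to 62.1 CPM and 65.3 to 76.0 CPM (log2 0.30, adjusted p = 0.0745, and 0.00302 in the blocked fit). SELENOK, another selenoprotein of the ER membrane, had a log2 value of -0.07 (adjusted p = 0.685).

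UBXN4, a UBX protein of the ER membrane, was at 131 to 133 CPM in non-treated and 141 to 162 CPM in 6j treated cells (log2 0.20, adjusted p = 0.156, and 0.0503 in the blocked fit). FAF2, UBXN6 and SVIP, the last of which is an inhibitor of ERAD, had log2 values of 0.03, 0.05 and 0.07.

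Of the 4 remaining factors none passed in edgeR without the block, and 1, BCAP31, had an unadjusted p under 0.05 and passed in DESeq2. BCAP31, an ER membrane chaperone, was at 139.9 to 154 CPM in non-treated and 113 to 128 CPM in 6j treated cells (log2 -0.28, SE 0.08, adjusted p = 0.0633, and 0.0126 in the blocked fit). Its groups did not overlap. NGLY1, the cytosolic enzyme that strips N-glycans from extracted proteins, was at 38.8 to 41.9 CPM and 43.5 to 54.2 CPM (log2 0.22, adjusted p = 0.228), with 6j treated replicate 3 standing above the other 5 libraries. JKAMP and TMUB1, membrane proteins tied to the ligases, had log2 values of -0.05 and -0.11 with overlapping groups.

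Of the 7 members past 0.05, HERPUD1 passed in every fit that left out 1 library, and the other 6 did not. With all libraries, the 7 also passed with the replicate block (adjusted p of at most 0.00155) and in DESeq2 (at most 0.0127). Without non-treated replicate 1, and likewise without 6j treated replicate 2, HERPUD1 was the only member that passed, as the plot of adjusted p under each fit shows.

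**Figure D4:**
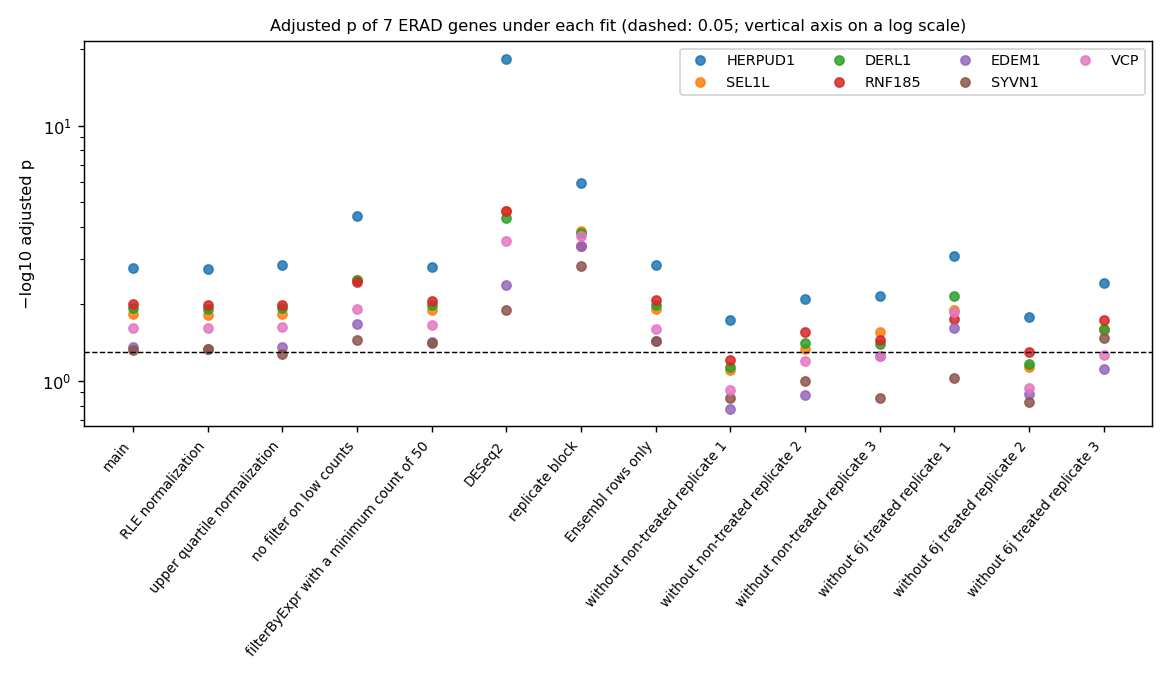
Adjusted p (as −log10, on a log scale) of the 7 ERAD genes past 0.05, in the fit reported and in each alternative, with the dashed line at 0.05. HERPUD1 stays above the line in all 14 fits, while the other 6 genes lie below it without non-treated replicate 1 and without 6j treated replicate 2.

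Levels of different members were set side by side per kb of exon length. This length covers all annotated exons of a gene together, so the positions below depend on which isoforms are annotated. In non-treated cells VCP was the most abundant member at 91.6 CPM per kb, followed by RNF5 at 58.2, AUP1 at 42.5, BCAP31 at 42.1 and then OS9. VCP did not overlap with RNF5 there (88.2 to 96.6 against 54.1 to 61.2 CPM per kb), whereas AUP1 and BCAP31 overlapped. In 6j treated cells VCP at 66.9 CPM per kb and RNF5 at 67.5 overlapped as well. HERPUD1 went from position 12 of 34, at 16.0 CPM per kb, to position 5, at 38.8, where its libraries (31.5 to 42.5 CPM per kb) overlapped with those of AUP1, OS9, BCAP31, ERLEC1 and UBXN4. SEL1L went from position 16 to position 10 (14.5 to 22.6 CPM per kb). Its 6j treated libraries (19.9 to 25.6 CPM per kb) overlapped with those of UBE2J1, FAF2, NPLOC4, SYVN1, SELENOS and EDEM1. The lowest members in both groups were RHBDD1 and TRIM13, at 0.723 and 2.06 CPM per kb in non-treated cells.

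Related members were compared as log2 ratios within each library, where the library size cancels, in 12 pairs. With 3 libraries against 3 a two-sided exact permutation test cannot go below p = 0.1, so no pair could reach 0.05. The ratio did not overlap between the groups in 7 pairs, each with p = 0.1 in that exact test (adjusted p = 0.171 over the 12 pairs). The change was 1.00 for HERPUD1 to HERPUD2 (pooled SD 0.22), 0.46 for EDEM1 to EDEM3 (SD 0.24), 0.43 for UBE2J1 to UBE2J2 (SD 0.10) and 0.41 for DERL1 to DERL2 (SD 0.09). It was 0.38 for SELENOS to SELENOK, 0.14 for UBXN4 to UBXN6 and -0.29 for RNF5 to RNF185.

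In the other 5 pairs the ratios overlapped. EDEM1 to EDEM2 was nonetheless higher in the 6j treated library of each replicate number, by 0.44, 0.46 and 0.45, and the overlap came from replicate 3, whose ratio was the highest of both groups (unpaired exact permutation p = 0.3). SEL1L to SYVN1 changed by 0.29, with 0.009, 0.53 and 0.34 by replicate (exact permutation p = 0.2). OS9 to ERLEC1 changed by -0.14, and EDEM2 to EDEM3 and UFD1 to NPLOC4 by 0.01 and -0.03.

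**Figure D5:**
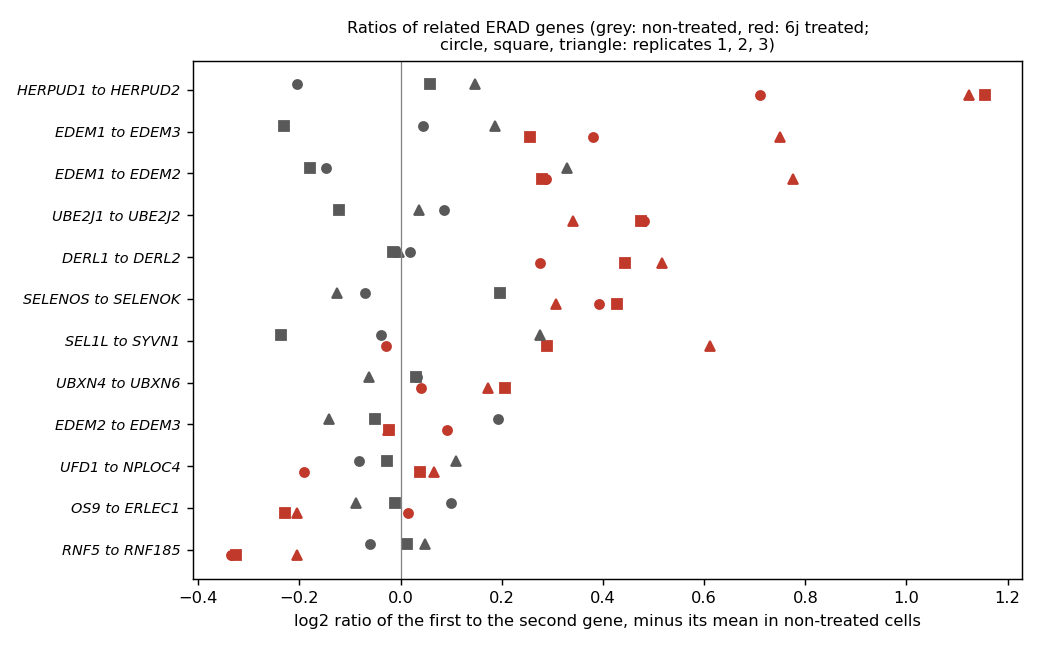
Log2 ratio of the first to the second gene of 12 pairs in each library, minus the mean of the non-treated libraries (grey, non-treated, and red, 6j treated). HERPUD1 to HERPUD2 lies furthest to the right with a mean change of 1.00, RNF5 to RNF185 lies to the left at -0.29, and the groups are apart in 7 of the 12 pairs.

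A wider list of 49 further ERAD genes (other ligases, shuttles, deubiquitinases and ER cochaperones) is given for context, of which 48 were tested. It held 3 upregulated DEGs and 1 downregulated DEG, beside 2.48% and 1.12% of all rows, and its median log2 fold change was 0.09. DNAJB9, the cochaperone ERdj4 that brings misfolded proteins to ERAD, was at 14.2 to 20.7 CPM in non-treated and 27.01 to 38.7 CPM in 6j treated cells and rose 1.86-fold (log2 0.89, SE 0.18, adjusted p = 0.0194). RNF145, a sterol-responsive ligase, rose 1.61-fold (log2 0.69, SE 0.16, adjusted p = 0.0316), and DNAJB2, a cochaperone with ubiquitin-interacting motifs, rose 1.58-fold (log2 0.66, SE 0.15, adjusted p = 0.029). SDF2L1, a cofactor of ER DnaJ proteins, was at 57.0 to 62.0 CPM in non-treated and 36.4 to 41.4 CPM in 6j treated cells and was 1.53-fold lower (log2 -0.61, SE 0.09, adjusted p = 0.00723).

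Of 12 regulators and gauges of the unfolded protein response, 8 rose at an adjusted p under 0.05 in edgeR and 0 fell, also at an unadjusted p and by DESeq2, beside 4.79% and 4.37% of all rows. Their median log2 fold change was 0.46. XBP1 and ATF6, the transcription factors that act on ERSE and UPRE elements, rose 1.45-fold and 1.41-fold (log2 0.53 and 0.49, adjusted p = 0.0131 and 0.0113). ERN1, the sensor kinase IRE1 that splices XBP1 mRNA, rose 2.47-fold (adjusted p = 0.00385). ATF4, a transcription factor that acts on CARE elements, rose 2.14-fold (adjusted p = 0.000839). These genes are beside the members and not among them, and a link to the changes of the ERAD genes was not tested.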

How the data were processed

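For 6 libraries of polyadenylated RNA, the authors deposited raw counts of each gene as whole numbers. The submitters' processing notes name HISAT2, StringTie and GRCh38. Versions, annotation, strand setting and the role of each tool are not given in the sources used here. Each library held fewer rows with a count of 1 than of 2 (142 to 175 against 557 to 692), so counts may be rounded estimates, and were used as deposited. Total counts of 31533403 to 38018349 set the precision, and floors (3 counts) cover counting error only.

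The 35 members were matched by symbol, and coordinates and exon lengths came from GENCODE 29. The members and all lists were chosen with earlier results of these data known. The whole table was filtered by filterByExpr (minimum count 10, minimum total 15), scaled by TMM and fitted by robust quasi-likelihood models without covariates in edgeR 4.0.16 with limma 3.58.1 under R 4.3.3. DEGs passed 0.05 after Benjamini-Hochberg adjustment and 1.5-fold. Log2 CPM of pairs used a prior count of 2, and pairs were tested with scipy 1.17.1 (Python 3.11.15). Methods were tested on simulated data.

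Values in every library were given for members past an adjusted p of 0.05, the ligase core and the partners of members called. DEGs of the wider list were named, and the 4 regulators of the unfolded protein response named were chosen after their values were seen. Other members were given by range. A pair with DERL3 could not be compared. A marker of the list is not reported here.

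Deviations from the group means correlated by 0.171, 0.18 and 0.312 between libraries of the same replicate number and by -0.231 to 0.0795 between others. The numbers were taken to pair libraries only in the replicate block and in differences within replicate numbers, although the labels do not say what they mark. The main fit, the fits without 1 library and the exact test of gene pairs did not use the pairing. Alternatives were other normalizations, filters and thresholds, DESeq2 1.42.0, the replicate block, Ensembl rows only and leaving out each library.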

Additional observations from a re-analysis of the deposited data

How the results depend on the processing

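The members had 2 upregulated DEGs and 0 downregulated DEGs under both other normalizations, both filters, DESeq2, the replicate block, Ensembl rows only and an unadjusted p under 0.05 with the fold threshold. At an adjusted p under 0.05 at any fold they were 6 and 1. Leaving out 1 library gave 1 to 4 upregulated DEGs, 1 without non-treated replicate 1 or 2 or 6j treated replicate 2 or 3, and 4 without 6j treated replicate 1. At any fold it gave 1 to 5 higher members (1 without non-treated replicate 1 or 6j treated replicate 2) and 0 to 1 lower (1 without 6j treated replicate 1 only). The cause was not tested.

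The replicate block gave 10 higher and 2 lower members at any fold and 1033 DEGs over all rows against 574. It changed no call of a DEG among the members and left the DEG counts of the wider list at 3 and 1. At any fold the wider list went from 4 higher and 1 lower to 9 and 4. Of all rows in the blocked fit, 13.1% were higher and 13.9% lower. For the pair ratios, the mean of the differences within replicate numbers equals the difference of the group means by construction (1.00 for HERPUD1 to HERPUD2). It therefore could not differ and is no check. No pair could pass 0.05 in the exact test, and the differences within replicate numbers were not tested. DESeq2 gave 2 lower members, VCP and BCAP31, and 7 higher, SELENOS among them (adjusted p = 0.0458). With upper quartile normalization SYVN1 did not pass (log2 0.35, adjusted p = 0.0527).

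DEGs over all rows were 1462 at any fold, 1136 with an unadjusted p, and 186 to 772 with 1 library left out (186 without non-treated replicate 1, 193 without 6j treated replicate 2, 379 without non-treated replicate 3). The wider list then had 0 to 3 upregulated DEGs (0 without non-treated replicate 1 or 6j treated replicate 2, 1 without non-treated replicate 2) and 0 to 1 downregulated (0 without non-treated replicate 1 or 6j treated replicate 3). The members' median was 0.0727 to 0.1063 (0.1063 without non-treated replicate 3, 0.1011 without 6j treated replicate 2, 0.0996 without 6j treated replicate 3).

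Members near 0 changed sign without reaching the threshold. AUP1 had log2 values of 0.0001 without a filter, 0.0012 with a minimum count of 50 and 0.0135 with Ensembl rows only, and -0.0917 to 0.0944 with 1 library left out. In those fits EDEM2 ranged from -0.0405 to 0.0829, EDEM3 from -0.0599 to 0.0922, RNF139 from -0.105 to 0.0306, TRIM13 from -0.0551 to 0.1515, UBE2G2 from -0.026 to 0.0595 and JKAMP from -0.0747 to 0.0114. DERL3 had 0 counts, so a difference was not detectable at this depth.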
